A study of Mus musculus with 4 samples.

Results

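The genes described here were 3 fatty acid binding proteins (Fabp3, Fabp4 and Fabp5) and 7 scavenger receptors or related uptake proteins (Cd36, Msr1, Marco, Cd5l, Colec12, Olr1 and Scarb1), 10 of the 31053 genes counted. They were taken by their gene symbols, and each of the 10 had 1 row in every matrix. CD45+ immune cells (cells that carry the pan-leukocyte surface protein CD45) were sorted from the spinal cord of 3-month-old C57BL/6 mice of both sexes and profiled by single-cell RNA sequencing (scRNA-seq) in 4 libraries, 1 per group. A sham library made by the standard dissociation and a sham library made by Act-seq are labelled as time point 0, with titles that name healthy spinal cords. The study calls these groups sham, which by its methods means a laminectomy without contusion. The other libraries came from cord segments centred on a moderate thoracic contusion, at 3 and 14 days post-injury (dpi). In Act-seq, actinomycin D (ActD), an inhibitor of transcription, is present during dissociation and sorting. The study describes Act-seq for the injured cords too, although their labels do not name it, so the ActD sham library served as the baseline. No genetic change is labelled. All mice received the same daily drugs after surgery, in a course that covered 3 dpi and ended before 14 dpi. The study's methods give the mice of both sexes in all, but not how many stood behind each of the 4 libraries. With 1 library per group, the spread between replicates is unknown and no difference between libraries was tested. All intervals cover counting error only.

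Fatty acid binding proteins (FABPs) are small cytosolic proteins that carry long-chain fatty acids and other lipids between membranes, droplets and the nucleus. Fabp3 was first known from heart muscle, Fabp4 from adipocytes and Fabp5 from the epidermis, and macrophages can make Fabp4 and Fabp5. Scavenger receptors are a structurally mixed group of surface proteins that bind modified lipoproteins, dying cells and microbes. After spinal cord injury, myelin and dead cells leave much lipid to be taken up, and microglia, infiltrating macrophages and macrophages at the borders of the cord are the cells known to engulf it.

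In the order standard sham, ActD sham, 3 dpi, 14 dpi, the libraries held 60412094, 27447471, 125270696 and 129935880 unique molecular identifiers (UMIs, each marking 1 captured RNA molecule) in 6827, 2439, 10763 and 11631 cell barcodes, of which 5035, 2135, 8214 and 9078 were kept. Pairs of libraries shared 2 to 23 of the kept barcodes, at most 0.609% of the smaller library. Each library was clustered alone, without the 10 genes and the lists used below, and clusters were named from markers. Microglia-like clusters held 2637, 1585, 747 and 3308 cells, with all 10 microglial markers found in at least 25% of the cells of each library. Border macrophage-like clusters held 129 cells of the standard sham, 158 of the ActD sham and 155 of the 14 dpi library, and none at 3 dpi. With the libraries integrated, an alternative, a 3 dpi cluster of 290 cells had the border markers Mrc1, Cbr2, Lyve1 and Folr2 among its leading genes. It scored best as injury macrophages and stayed without a name, so cells of the border kind at 3 dpi may sit in other clusters. An injury macrophage-like class of 2586 cells was found at 3 dpi and none at 14 dpi, where 4 alternatives of the processing did name one, of 92 to 398 cells. There was a classical monocyte-like class of 717 cells at 14 dpi alone, and there were patrolling monocyte-like clusters of 47 and 44 cells in the standard sham and 14 dpi libraries. Several large myeloid clusters stayed without a name because genes of another class led them. Among them were a cluster of 1148 cells at 14 dpi led by Gpnmb, Spp1 and Fabp5, in which all 10 microglial markers were detected, and 2 clusters at 3 dpi, of 937 cells led by Ccl24 and Cxcl3 and of 511 cells led by Plac8 and Chil3. They are called by these genes below. The border macrophage class at 14 dpi also carried microglial markers, at a summed 5699 CPM (UMIs of a gene per 1000000 UMIs of the class), against 4162 CPM in the ActD sham and 1637 CPM in the standard sham border class. The patrolling monocytes of the standard sham library carried neutrophil markers at 20565 CPM. The part of these other cell types in the results was not tested.

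In GRCm38 (GENCODE annotation, matched by Ensembl identifier), Fabp5 lies on chromosome 3 at 10012548 to 10016607 on the plus strand, and Fabp4 at 10204088 to 10208576 on the minus strand of the same chromosome. Fabp3 lies on chromosome 4 at 130308595 to 130315463 (plus) and Cd5l on chromosome 3 at 87357881 to 87371073 (plus). Cd36 lies on chromosome 5 at 17781690 to 17888801 (minus), and Scarb1 on the same chromosome at 125277087 to 125341094 (minus). Msr1 lies on chromosome 8 at 39581685 to 39642673, Marco on chromosome 1 at 120474538 to 120505024 and Olr1 on chromosome 6 at 129485244 to 129507165, all on the minus strand. UMIs were counted per gene from 3′ end reads, so the values do not separate isoforms or exons. Fabp3 shares 206 runs of 60 bases with the pseudogene Fabp3-ps1, and Fabp5 shares 152 with Gm6166 and 65 with Gm14328. These pseudogenes are not rows of the matrix, and UMIs from them could not be seen. Fabp3 overlaps Zcchc17 and Gm10570 on the other strand, and Scarb1 overlaps Gm42633 on its own strand. Colec12 overlaps Gm7497 and 3 unnamed clone-based genes on its own strand and Gm17430, Gm23350 and Gm23637 on the other.

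RefSeq promoter windows were found for 5 of the 10 genes. Those of Cd5l and Olr1 are shown, because Cd5l was near 0 in the sham cord and highest in microglia at 3 dpi, and Olr1 had its highest CPM in neutrophils at 3 dpi and at 0 UMIs in border macrophages. The windows shown and searched hold the 200 bases before the transcription start in GRCm38.p6, with the motifs found in capitals. Cd5l is at chr3:87357681-87357880 on the plus strand, and Olr1 at chr6:129507166-129507365 on the minus strand.
Cd5l: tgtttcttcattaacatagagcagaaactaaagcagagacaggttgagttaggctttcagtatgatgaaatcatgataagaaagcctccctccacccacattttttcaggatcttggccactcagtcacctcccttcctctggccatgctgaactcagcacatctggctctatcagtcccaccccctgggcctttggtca
Olr1: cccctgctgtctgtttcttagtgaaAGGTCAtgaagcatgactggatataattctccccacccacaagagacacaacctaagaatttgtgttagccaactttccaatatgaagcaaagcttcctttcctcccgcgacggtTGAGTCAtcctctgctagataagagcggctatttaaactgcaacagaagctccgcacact
Searched on both strands, the Olr1 window held an AP-1 site (TGANTCA) that starts 60 bases before the transcription start and a nuclear receptor half-site (AGGTCA) 175 bases before it. Of 32851 promoter windows of this length, 5.48% held the first and 11.4% the second, so neither is rare. The Cd5l window held neither motif, nor a PU.1 site (GAGGAAGT, 2.06% of windows), the core of an antioxidant response element (TGACNNNGC, 8.60%) or a TATA box (TATAAA, 9.96%).

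Fabp5, which binds fatty acids in epidermal and immune cells, was highest in the injury macrophages among all named classes of the 4 libraries. Its level in microglia was 31.4 CPM (95% Poisson interval 29.1 to 33.9) in the standard sham, 13.8 CPM (12.1 to 15.7) in the ActD sham, 1085 CPM (1070 to 1100) at 3 dpi and 374 CPM (368 to 381) at 14 dpi. In border macrophages it was 23.3, 21.0 and 339 CPM in the standard sham, ActD sham and 14 dpi libraries. Injury macrophages reached 9972 CPM (9943 to 10001). Microglia, border macrophages and injury macrophages of the injured cord thus all lay above the microglia and border macrophages of both sham libraries. Injury macrophages were 474-fold (348 to 664) above the border macrophages of the ActD sham and 9.19-fold (9.06 to 9.32) above microglia of their own library. Microglia were 78.6-fold (69.1 to 89.7) above the ActD sham at 3 dpi and 27.1-fold (23.8 to 30.9) at 14 dpi. Classical monocytes at 14 dpi held 146 CPM (137 to 156), and patrolling monocytes only 33.3 CPM in the standard sham and 26.3 CPM at 14 dpi, with intervals that overlap. Without the rule on leading genes, unnamed clusters of 185 cells (standard sham) and 60 cells (ActD sham) would count as classical monocytes. They held Fabp5 at 144 and 160 CPM, near the classical monocytes at 14 dpi.

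Lymphocytes served as a measure of RNA that is free in the droplets, as far as they do not make these genes. At 3 dpi a T or NK cell held 2.74 Fabp5 UMIs on average, a B cell 2.32 and a neutrophil 2.34, against 26.9 in a microglial cell and 175 in an injury macrophage. These 3 other classes thus had almost the same number of molecules per cell. Scaled to CPM they held 703, 843 and 977 CPM, near the 1085 CPM of microglia, since their cells held far fewer UMIs. In the standard sham, T and NK cells (32.4 CPM) and B cells (37.1 CPM) held as much Fabp5 as microglia. In the ActD sham these lymphocytes held 31.2 and 7.43 CPM, against 13.8 CPM in microglia. Median UMIs per cell were 16632 in injury macrophages, 22169 in microglia, 3590 in T and NK cells and 2522 in B cells. Once every cell was thinned to 1000 UMIs, Fabp5 was found in 92.9% of injury macrophages (91.9 to 93.9), 53.8% of T and NK cells, 54.9% of B cells and 46.6% of microglia (43.0 to 50.3). The share of microglia at 3 dpi thus did not stand above that of lymphocytes at equal depth, whereas a microglial cell held 9.81 times the molecules of a T or NK cell. Without thinning, 99.6% of injury macrophages and 98.5% of microglia held a UMI. At 14 dpi the share was 19.0% in microglia (17.7 to 20.4) against 4.55% in T and NK cells and 5.74% in B cells, so it stood above the lymphocytes there. With the UMIs per cell of T and NK cells taken off every class, an alternative chosen after seeing the data, Fabp5 in injury macrophages was 3.33 above microglia on the log2 scale, against 3.20 as counted. Over all 14 alternatives this log2 ratio lay between 2.28, without doublet removal, and 3.54, with each cell named on its own. That of microglia at 3 dpi over the ActD sham, 6.30 as counted, lay between 5.66 and 12.45, the highest with the UMIs per cell of T and NK cells taken off. In the ActD sham, T and NK cells held 0.269 Fabp5 UMIs per cell, from 7 UMIs in 26 cells, against 0.150 in microglia. Taking these off left nothing on the sham side, so the highest value rests on a floor and does not measure a larger difference.

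**Figure D1:**
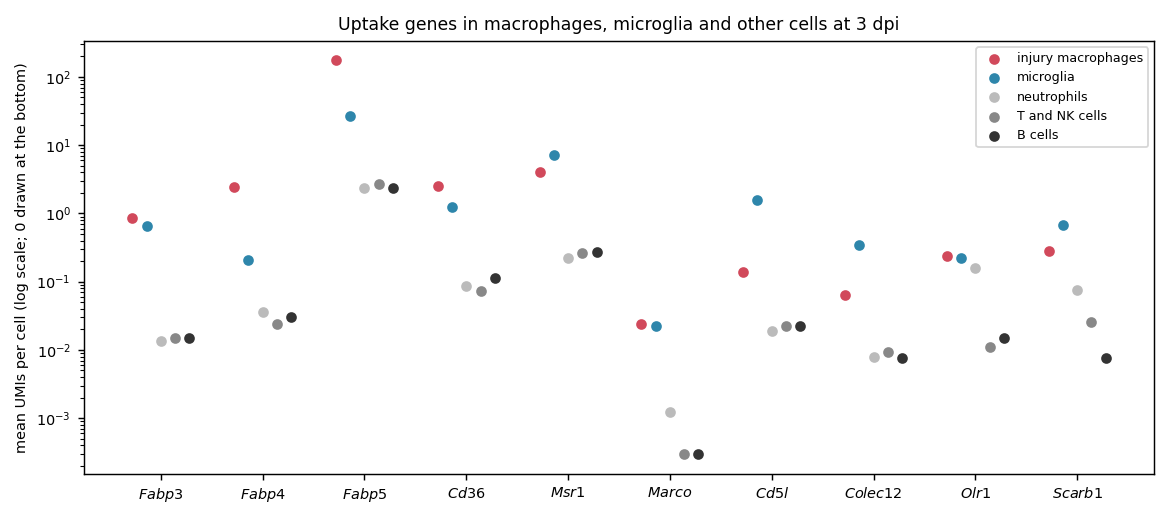
Mean UMIs per cell of each gene at 3 dpi (log axis, values of 0 drawn at the bottom) in injury macrophages, microglia, neutrophils, T and NK cells and B cells. Fabp5 lies at 2.32 to 2.74 UMIs per cell in the 3 other classes, below 26.9 in microglia and 175 in injury macrophages.

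Fabp4, the FABP of adipocytes and lipid-loaded macrophages, followed a different pattern. In microglia it was at 1.18, 0.058, 8.42 and 0.763 CPM in the libraries of the standard sham, the ActD sham, 3 dpi and 14 dpi. In border macrophages it was at 2.22, 0.526 and 5.05 CPM, from 2, 1 and 7 UMIs. Injury macrophages held 141 CPM (137 to 144) and patrolling monocytes 192 CPM (144 to 252) in the standard sham and 147 CPM (98.0 to 213) at 14 dpi. The gene was thus at or near 0 in the resident cells of the sham cord and high in patrolling monocytes and injury macrophages. Injury macrophages were 16.7-fold (14.3 to 19.7) above microglia at 3 dpi. Against 1 UMI in the border macrophages of the ActD sham, the ratio was 268-fold, with an interval of 48.1 to 10589. At 1000 UMIs per cell Fabp4 was found in 8.59% of injury macrophages (7.54 to 9.73), in 0.268% of 3 dpi microglia and in 0.742% of T and NK cells, so this share did not separate microglia from lymphocytes. Per cell, microglia held 0.209 UMIs, T and NK cells 0.0241 and B cells 0.0301. Classical monocytes at 14 dpi held 7.05 CPM.

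Fabp3, the heart-type FABP, was higher after injury in both microglia and macrophages. Microglia held 3.20 CPM (2.49 to 4.06) in the standard sham, 0.754 CPM (0.402 to 1.29) in the ActD sham, 26.6 CPM (24.3 to 29.1) at 3 dpi and 46.7 CPM (44.5 to 48.9) at 14 dpi. Injury macrophages held 49.1 CPM (47.1 to 51.2), and border macrophages 0 CPM in the standard sham, 0.526 CPM in the ActD sham and 31.7 CPM (23.1 to 42.6) at 14 dpi. Classical monocytes, at 6.55 CPM (4.68 to 8.92), were below the microglia and border macrophages of that library. Among the named microglia, Fabp3 was the FABP higher at 14 dpi than at 3 dpi. Its difference between injury macrophages and microglia at 3 dpi (1.85-fold, 1.67 to 2.04) was under 2-fold.

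**Figure D2:**
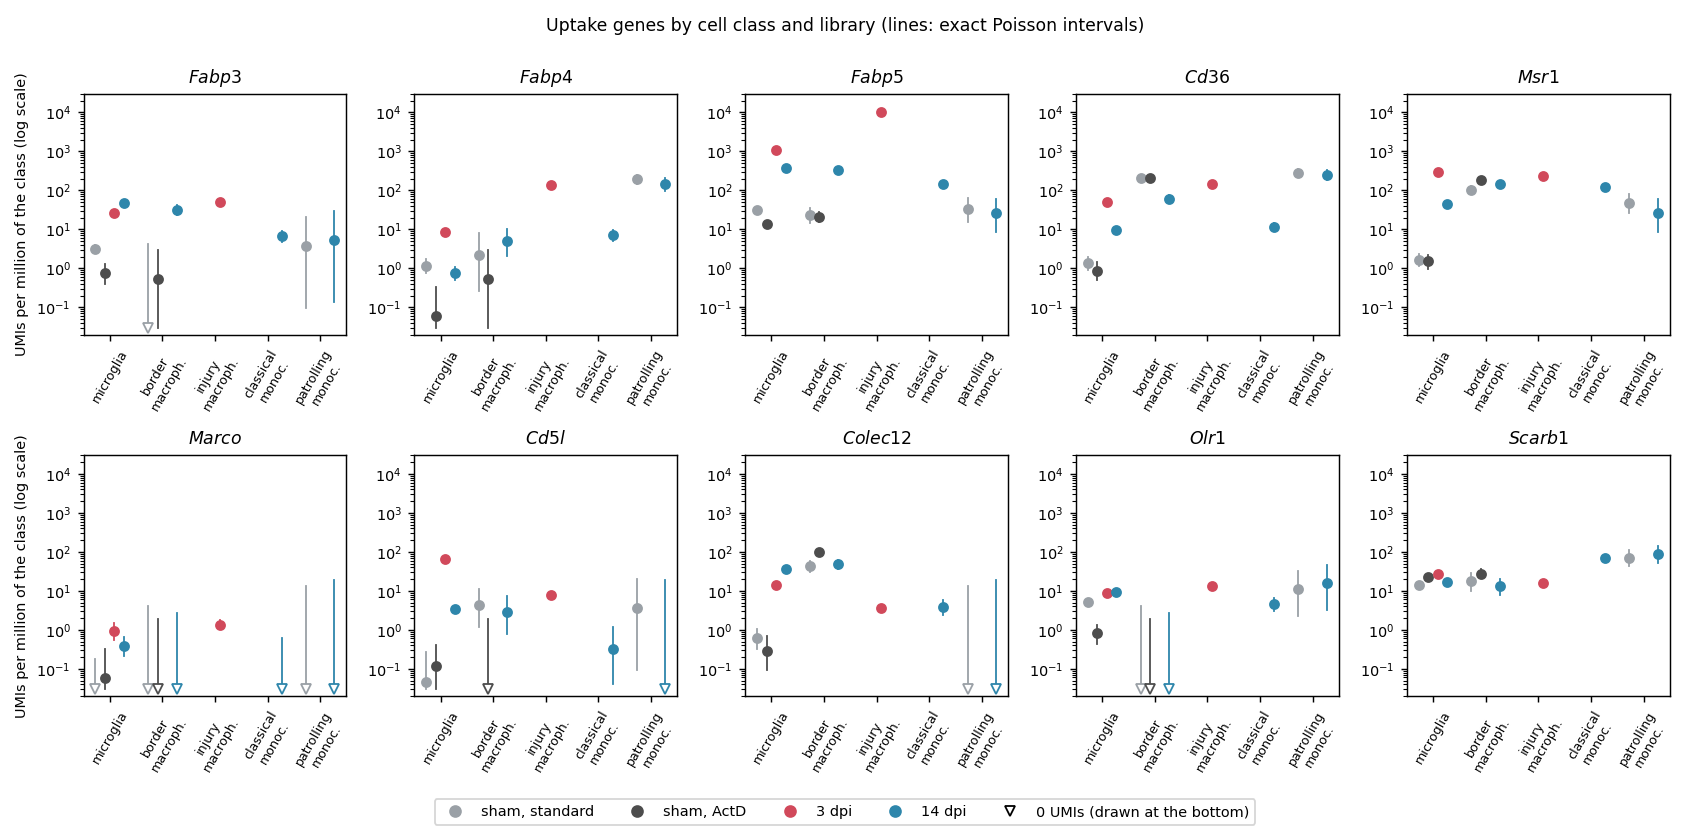
Level of each of the 10 genes in CPM (log axis) by cell class, with 1 point per library and 95% Poisson intervals; open triangles at the bottom mark classes with 0 UMIs. Fabp5 peaks in injury macrophages at 9972 CPM, Cd36 is above 200 CPM in the sham border macrophages, and Marco stays below 1.5 CPM in all classes shown.

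Cd36, a receptor for long-chain fatty acids, oxidised lipoproteins and dying cells, already marked border macrophages and patrolling monocytes before injury. Border macrophages held 211 CPM (182 to 244) in the standard sham, 208 CPM (188 to 230) in the ActD sham and 60.6 CPM (48.3 to 75.0) at 14 dpi. Patrolling monocytes held 281 CPM (221 to 352) in the standard sham and 253 CPM (186 to 335) at 14 dpi, and injury macrophages 143 CPM (140 to 147). As counted, injury macrophages were below ActD sham border macrophages (0.687-fold, 0.621 to 0.763) and 2.87-fold (2.68 to 3.08) above microglia at 3 dpi. The log2 ratio of injury macrophages over these border macrophages, −0.54 as counted, lay between −1.06 and 0.45 over 14 alternatives. The order of these 2 classes was thus not stable. In microglia Cd36 was at 1.37, 0.870, 49.9 and 9.41 CPM in the 4 libraries, 57.3-fold (34.6 to 103) above the ActD sham at 3 dpi and 10.8-fold (6.46 to 19.5) at 14 dpi. Its share of 3 dpi microglia at 1000 UMIs was 4.83%, between the 1.86% of T and NK cells and the 6.77% of B cells, while a microglial cell held 1.24 UMIs against 0.0742 and 0.113. Against the ActD sham library, Cd36 at 14 dpi was therefore higher in microglia and 3.44-fold (2.71 to 4.40) lower in border macrophages. The border class at 14 dpi also carried microglial markers, at a summed 5699 CPM, and their part in this difference was not tested. Classical monocytes at 14 dpi held 11.5 CPM, far below patrolling monocytes of the same library.

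Msr1, the class A scavenger receptor that binds modified lipoproteins, was high in injury macrophages, border macrophages and microglia alike after injury. Microglia held 1.65 CPM (1.15 to 2.29) in the standard sham, 1.51 CPM (0.985 to 2.21) in the ActD sham, 292 CPM (285 to 300) at 3 dpi and 44.4 CPM (42.3 to 46.6) at 14 dpi. Border macrophages held 105, 181 and 142 CPM in the standard sham, ActD sham and 14 dpi libraries, and injury macrophages 228 CPM (224 to 233). The gene thus separated border macrophages from microglia by 120-fold (80.4 to 186) in the ActD sham, while at 3 dpi microglia were 1.28-fold (1.24 to 1.32) above injury macrophages. The log2 ratio of injury macrophages over microglia, −0.36 as counted, lay between −0.40 and 0.51 over 14 alternatives, so the order of these classes was not stable. Microglia were 194-fold (132 to 297) above the ActD sham at 3 dpi. At 1000 UMIs per cell Msr1 was found in 20.8% of injury macrophages (19.3 to 22.4) and 17.8% of microglia (15.1 to 20.8) at 3 dpi, against 6.86% of T and NK cells and 9.02% of B cells. Classical monocytes at 14 dpi held 118 CPM (110 to 127) and patrolling monocytes 26.3 CPM. Together these monocytes were 2.60-fold (2.38 to 2.84) above microglia of that library.

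Cd5l, a secreted scavenger receptor cysteine-rich protein of tissue macrophages, was near 0 in the sham libraries, with 1 UMI in microglia of the standard sham, 2 in those of the ActD sham, and 4 and 0 in the border macrophages. At 3 dpi it was at 64.1 CPM (60.6 to 67.9) in microglia and 7.81 CPM (7.02 to 8.67) in injury macrophages. Microglia were thus 8.21-fold (7.28 to 9.27) higher, the reverse of Fabp4 and Fabp5. B cells of that library held 8.19 CPM, near the level of injury macrophages, but lymphocytes held 0.0223 to 0.0226 UMIs per cell, against 0.137 in injury macrophages and 1.59 in microglia. At 14 dpi microglia held 3.46 CPM (2.89 to 4.12), but the Gpnmb-Spp1 cluster 51.5 CPM (48.2 to 55.0), a 14.9-fold difference (12.3 to 18.1). Of the 898 UMIs behind it, all were in 110 of the 1148 cells and 302 in 1 cell. The only named microglial cluster above 5 CPM by then was 1 of 95 cells led by interferon response genes, at 30.4 CPM (21.7 to 41.4). Its 40 UMIs lay in only 5.26% of those cells.

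Colec12, a membrane collectin that binds oxidised lipoproteins and sugars, was a border macrophage gene in the sham cord. Border macrophages held 43.4 CPM (30.8 to 59.3) in the standard sham, 101 CPM (87.1 to 116) in the ActD sham and 47.6 CPM (36.8 to 60.6) at 14 dpi. Injury macrophages held 3.62 CPM (3.09 to 4.22), 27.9-fold (22.5 to 34.5) below the ActD sham border macrophages. In microglia it was at 0.612, 0.290, 13.9 and 35.9 CPM in the 4 libraries, 48.0-fold (20.3 to 149) above the ActD sham at 3 dpi and 124-fold (52.9 to 382) at 14 dpi. Microglia at 14 dpi were thus below the border macrophages of that library, and the Gpnmb-Spp1 cluster was above them, at 95.7 CPM (91.2 to 100.4), a level within the interval of the ActD sham border macrophages. Many other genes share repeat-like runs of 60 bases with Colec12 transcripts, and the effect on its counts was not tested.

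Olr1, the lectin-type receptor for oxidised low-density lipoprotein, reached its highest class level in neutrophils at 3 dpi, at 66.0 CPM. Among clusters, 62 microglia of the standard sham led by Spp1, Lpl and Apoe held as much, at 70.4 CPM. Injury macrophages held 13.6 CPM (12.6 to 14.8), microglia 5.09, 0.812, 9.01 and 9.32 CPM in the 4 libraries, and border macrophages 0 UMIs in each of their 3 libraries, which allows up to 3.34, 1.58 and 2.16 CPM in the standard sham, ActD sham and 14 dpi library. In UMIs per cell at 3 dpi, the order was different, with 0.239 in injury macrophages, 0.224 in microglia, 0.158 in neutrophils and 0.0111 in T and NK cells. The Ccl24-Cxcl3 and Plac8-Chil3 clusters at 3 dpi held 36.8 and 32.3 CPM, above the injury macrophages.

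Scarb1, the receptor for high-density lipoprotein, varied least with injury in microglia, at 14.0, 22.9, 26.9 and 17.0 CPM in the 4 libraries. It was 1.18-fold (1.03 to 1.34) the ActD sham level at 3 dpi and 0.740-fold (0.651 to 0.842) at 14 dpi. Monocytes were the classes with most Scarb1, at 68.3 CPM (61.9 to 75.2) in the classical and 89.5 CPM (52.2 to 143) in the patrolling monocytes at 14 dpi, and 70.3 CPM (42.3 to 110) in the patrolling monocytes of the standard sham. Marco, a class A scavenger receptor of macrophages in the spleen and lung, was almost undetected, with 62 UMIs in injury macrophages (1.37 CPM), 17 in microglia at 3 dpi and at most 14 in any other of the classes compared. Its order among classes was not detectable at this depth.

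For the comparisons of classes, a gene was counted as higher or lower at a CPM ratio of at least 2 in either direction, if the pair together held 20 or more of its UMIs, which is a count by size and no test. A gene with few UMIs on 1 side entered only through the other side, so its direction was then largely set by this minimum. Injury macrophages at 3 dpi against border macrophages of the ActD sham had 5 of the 10 genes higher (Fabp3, Fabp4, Fabp5, Cd5l and Olr1) and 1 lower (Colec12). Of these, Fabp3, Fabp4, Cd5l and Olr1 held 1, 1, 0 and 0 UMIs in the border macrophages, and so entered through the injury macrophages. Among all 12382 genes, 7.48% were higher and 40.2% lower. The median log2 ratio of the 10 genes, with those at 0 taken at 3 counts, was 1.32, against −0.74 over all genes. With the trimmed mean of M-values (TMM) instead of total UMIs, log2 ratios in this comparison shifted by 0.99, and the share of all calls that were higher moved from 15.7% to 58.0%. Against microglia of the same library, 3 of the 10 genes were higher in injury macrophages (Fabp4, Fabp5 and Cd36) and 2 lower (Cd5l and Colec12), where 6.46% and 16.3% of all genes were. Here the share of higher calls moved from 28.4% to 41.6% under TMM. Within the 3 dpi library, Fabp4, Fabp5 and Cd36 thus leaned to the macrophages, and Cd5l and Colec12 to the microglia.

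Microglia at 3 dpi against the ActD sham had 8 of 9 genes tested higher and none lower, where 12.3% of all genes were higher and 34.1% lower. At 14 dpi the counts were again 8 and 0 of 9, where 4.71% and 19.6% of all genes were. Scarb1 was the gene below 2-fold in both, and Marco had too few UMIs. Both comparisons share the ActD sham microglia. There Fabp3, Fabp4, Cd36, Cd5l, Colec12 and Olr1 held 13, 1, 15, 2, 5 and 14 UMIs. These genes reached the minimum of 20 UMIs through the injured libraries, so being counted as higher was largely set for them. Fabp3 and Colec12 were the 2 genes higher at 14 than at 3 dpi in microglia by more than their intervals, and Fabp4, Fabp5, Cd36, Msr1, Cd5l and Scarb1 were higher at 3 dpi. These values leave out the Gpnmb-Spp1 cluster, which would count as microglia without the rule on leading genes. With it, Fabp4 at 14 dpi was at 9.68 CPM (8.87 to 10.5) instead of 0.763 CPM, no longer below the 8.42 CPM of 3 dpi, Fabp5 at 755 CPM (748 to 762) and Cd5l at 18.9 CPM (17.8 to 20.1). The cluster's Fabp4 and Cd5l UMIs lay in 75 and 110 of its 1148 cells. Alternatives that named injury macrophages at 14 dpi gave these Fabp4 at 77.0 to 276 CPM and Cd5l at 94.5 to 247 CPM. Whether such cells lie in this cluster was not tested, so the pooled values may not be microglial levels. The median log2 ratio was 5.84 at 3 dpi and 4.76 at 14 dpi, against −0.57 and −0.54 over all genes, and under TMM the share of higher calls moved from 26.5% to 52.6% and from 19.4% to 52.6%. The standard sham library, made without ActD, differed as well. Its microglia had 4 of 7 genes tested higher than those of the ActD sham (Fabp3 4.25-fold, Fabp4 20.3-fold from 25 and 1 UMIs, of which 23 were in 1 cell, Fabp5 2.28-fold and Olr1 6.26-fold) and none lower, where 6.84% and 26.1% of all genes were, with a share of higher calls of 20.8% by total UMIs and 50.2% by TMM. Fabp3, Fabp4 and Olr1, with 13, 1 and 14 UMIs in the ActD sham microglia, reached the minimum of 20 UMIs through the standard sham. Being counted as higher was thus largely set for these genes here as well. The naming of clusters differed between the 2 sham libraries too. Standard sham microglia included a cluster of 62 cells led by Spp1, Lpl and Apoe. It held 37 of their 68 Fabp3 UMIs and 59 of their 108 Olr1 UMIs. An ActD sham cluster of 61 cells with 22 Fabp3 UMIs stayed without a name. Without the rule on leading genes, the ActD sham microglia were 1646 cells instead of 1585, and 2 genes instead of 4 were higher. These calls thus depended in part on the naming. Between the 2 sham libraries, the protocol and the software version of the matrices (3.0.1 and 3.1.0) cannot be told apart. The 3 dpi matrix was made by version 3.0.1, and those of the ActD sham and 14 dpi by 3.1.0. For 3 dpi against either of these libraries, time and software version cannot be told apart.

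**Figure D3:**
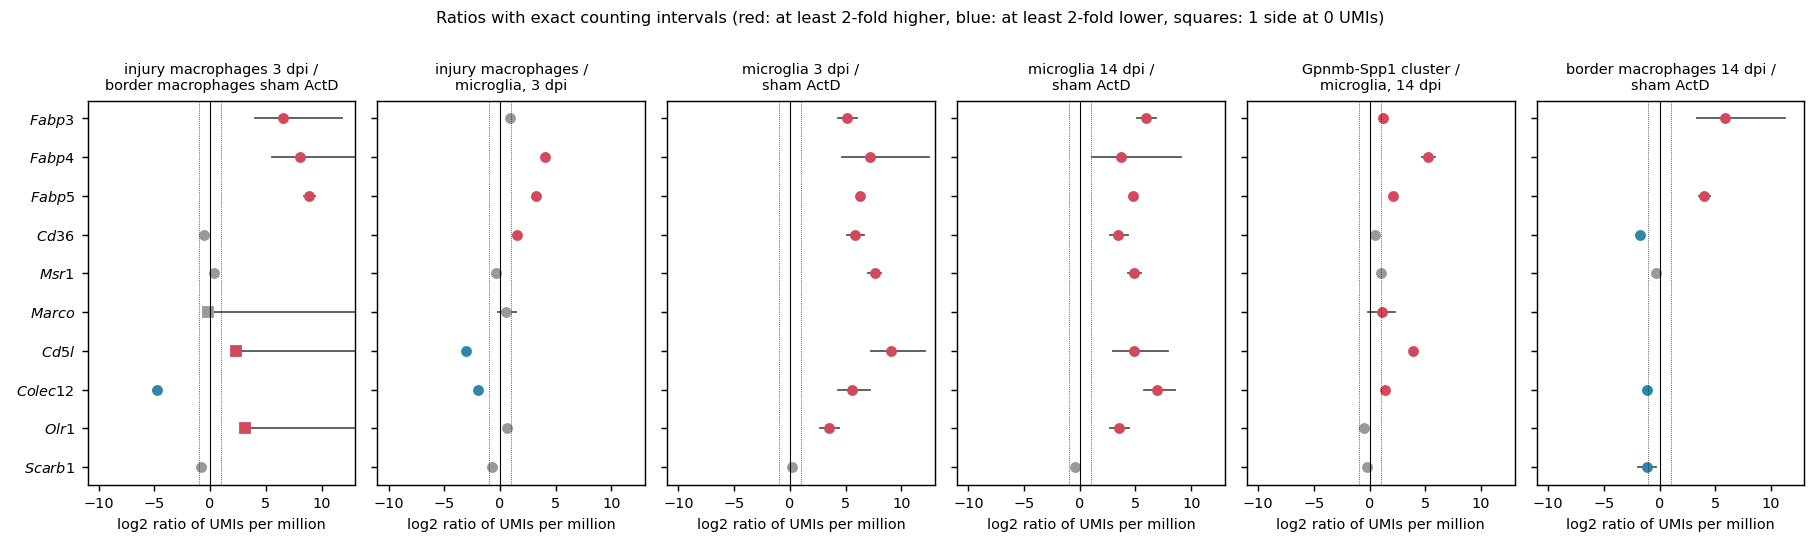
Log2 ratio of CPM of each gene in the main comparisons, in 6 panels, with 95% intervals for counting error cut at the panel edges; dotted lines mark 2-fold in either direction, red points genes at least 2-fold higher, blue points genes at least 2-fold lower, and squares a side at 0 UMIs. In microglia of both injured libraries 8 genes lie above the upper line, while Scarb1 stays between the lines.

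Border macrophages of the ActD sham had 3 of 5 genes tested higher than microglia of that library (Cd36 239-fold, Msr1 120-fold and Colec12 348-fold) and none lower, where 13.9% of all genes were higher and 12.5% lower. The microglia held 15 UMIs of Cd36 and 5 of Colec12, so these 2 genes entered through the border macrophages. At 14 dpi against the ActD sham, border macrophages had 2 of 6 genes higher (Fabp3 and Fabp5) and 3 lower (Cd36, Colec12 and Scarb1), where 2.61% and 12.7% of all genes were. Fabp3 held 1 UMI in the ActD sham class and 44 at 14 dpi, and so entered through the 14 dpi library. Scarb1 held 53 and 18 UMIs and entered through the ActD sham. Their directions were thus largely set by the minimum. Between the 2 sham libraries, border macrophages differed 2-fold in 1 of 5 genes, Colec12, which was lower in the standard sham (0.430-fold, 0.296 to 0.609), where 4.39% of all genes were higher and 26.2% lower. The border class at 14 dpi against the injury macrophages at 3 dpi had 1 of 10 genes higher (Colec12, 13.1-fold, 9.73 to 17.6) and 5 lower (Fabp4, Fabp5, Cd36, Cd5l and Olr1), where 28.5% and 7.84% of all genes were and the share of higher calls moved from 78.4% to 42.1% under TMM. Fabp5 was 29.4-fold (26.9 to 32.3) lower there. Fabp4, Cd5l and Olr1 held 7, 4 and 0 UMIs in the border class. They entered through the injury macrophages, so being counted as lower was largely set for them. Under 6 of the alternatives Cd5l was higher instead of lower in this comparison, and under 3 Fabp4 was. In 4 of these 6 the 14 dpi side also held cells named injury macrophages, with Cd5l at 94.5 to 247 CPM, while the border macrophages beside them held 2.81 to 9.77 CPM. In the other 2, a border class of 251 or 285 cells in place of 155 held Cd5l at 120 or 118 CPM. Monocytes of both kinds at 14 dpi against microglia of that library had 3 of 9 genes higher (Fabp4, Msr1 and Scarb1) and 4 lower (Fabp3, Fabp5, Cd5l and Colec12), where 14.5% and 20.5% of all genes were. Cd5l held 2 UMIs in the classical and 0 in the patrolling monocytes, and so entered through the microglia. Without the doublet removal the log2 ratio of Msr1 was −0.08, against 1.38, and with clusters named without regard to leading genes, an alternative chosen after seeing the data, that of Fabp4 was −0.49, against 3.89.

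The injury macrophages at 3 dpi were made up of a Gpnmb-led cluster of 1230 cells, an Arg1-led cluster of 1167 cells, and small clusters of 98 cells led by interferon response genes (Rsad2, Isg15) and of 91 cells led by Hspa1b, a heat shock gene. The first 2 held Fabp5 at 10014 and 10305 CPM, which differed by 1.03-fold. Cd36 was at 79.9 CPM in the Gpnmb-led and 213 CPM in the Arg1-led cluster, and Marco had 8 and 53 UMIs. Fabp3 went the other way, at 63.8 and 33.5 CPM. None of the 10 genes was 2-fold higher in the Gpnmb-led cluster, and 2 were 2-fold lower, where 1.86% of all genes were higher and 1.70% lower. Fabp5 was thus even over these 2 large clusters, and Cd36 leaned to the Arg1-led one. The small clusters of 98 and 91 cells held less Fabp5, at 6396 and 1457 CPM. Outside the class, the Ccl24-Cxcl3 cluster held Cd36 at 191 CPM and Msr1 at 399.5 CPM but Fabp5 at only 2554 CPM, and the Plac8-Chil3 cluster, led by monocyte genes, held Msr1 at 327 CPM, Cd36 at 80.9 CPM and Fabp5 at 1540 CPM. A cluster of 253 cells led by collagen genes held Fabp4 at 209 CPM, although only 3.16% of its cells had a UMI at 1000 UMIs per cell.

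At 14 dpi the Gpnmb-Spp1 cluster held the highest Fabp3 (108 CPM) of all clusters and more Fabp5 (1556 CPM, 1538 to 1575) than any named microglial cluster. Against the named microglia of that library, 6 of 10 genes were at least 2-fold higher (Fabp3, Fabp4, Fabp5, Marco, Cd5l and Colec12) and none lower, where 2.61% and 5.29% of all genes were. Fabp4 was 37.3-fold (25.5 to 56.7) higher, at 28.4 CPM, with its 496 UMIs in 75 of the 1148 cells, and Marco rested on 14 UMIs on either side. Those in the cluster lay in 3 cells, 10 of them in 1 cell, so the count for Marco carries little weight. Fabp5 is among the genes that lead the cluster, and the cluster was chosen from the cells themselves, so these values are a description. At the other end, the microglial cluster of 679 cells led by P2ry12, Siglech and Tmem119, genes of resting microglia, held Fabp5 at 58.5 CPM, Fabp3 at 7.04 CPM and Colec12 at 2.61 CPM. A cluster of 623 microglia led by Ccl4 and Lpl lay between, with Fabp5 at 683 CPM, Fabp3 at 78.7 CPM and Colec12 at 72.2 CPM.

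**Figure D4:**
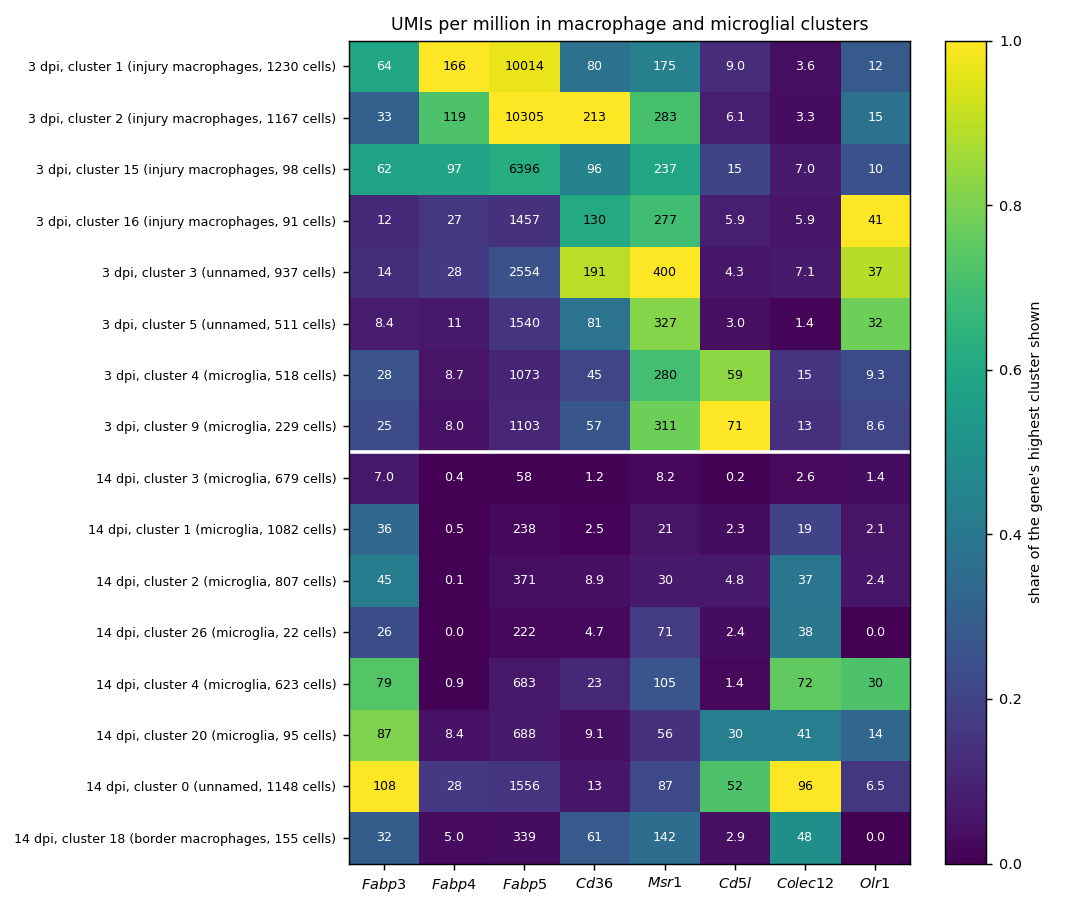
CPM of 8 of the genes (numbers) in macrophage and microglial clusters at 3 and 14 dpi, coloured on a linear scale by their share of the gene's highest cluster shown. At 14 dpi Fabp5 runs from 58.5 CPM in the P2ry12-led cluster to 1556 CPM in the Gpnmb-Spp1 cluster, and at 3 dpi both large injury macrophage clusters exceed 10000 CPM.

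To see how the 10 genes ran with 12 lysosome genes, the cells of each class were ranked by the share of their UMIs from these and divided into quartiles. The list includes Gpnmb, a marker used to name injury macrophages, which also leads a cluster at 3 dpi and the Gpnmb-Spp1 cluster at 14 dpi. The ranking may thus follow cluster membership, and this part was not tested. In injury macrophages Fabp4 was higher at each step, from 50.2 CPM in the lowest quartile to 219.5 CPM in the highest (4.37-fold), Fabp5 from 4847 to 12866 CPM (2.65-fold), and Fabp3 from 24.3 to 70.4 CPM (2.90-fold). Cd5l was 2.96-fold higher in the highest quartile as well. Msr1 was lower at each step, from 272 to 172 CPM, and Cd36 was highest in the middle quartiles. The FABPs and the secreted Cd5l were thus highest in the injury macrophages with the largest share of these 12 genes, which the surface receptors Msr1 and Cd36 were not. In microglia at 3 dpi the highest quartile held 4.19-fold more Cd5l than the lowest, 3.34-fold more Fabp3, 3.27-fold more Fabp5 and 1.61-fold more Cd36, while the ratio for Msr1 was 1.01. In microglia and the Gpnmb-Spp1 cluster at 14 dpi, Cd5l went from 3.49 CPM in the lowest to 42.0 CPM in the highest quartile, and Fabp5 was 7.58-fold higher (174 to 1316 CPM), Fabp3 5.92-fold, Colec12 5.06-fold and Msr1 2.02-fold. Of the 1025 Cd5l UMIs in these 14 dpi cells, 898 lay in 110 cells of the Gpnmb-Spp1 cluster, 302 of them in 1 cell. Classical monocytes at 14 dpi had the largest step in Cd36, from 2.59 to 29.4 CPM, beside Fabp4 (2.59 to 18.9 CPM). These values rest on only 70 Cd36 and 43 Fabp4 UMIs in the class. Of these, 50 and 36 lay in a single cluster of 268 cells. Microglia of the ActD sham showed no climb over the quartiles, with Fabp5 highest in the lowest quartile, at 32.6 CPM against 8.07 CPM in the highest. Median UMIs per cell ran from 13693 to 18232 over the quartiles of injury macrophages and from 8135 to 14492 over those of the 14 dpi cells, and the part of depth was not tested. Cells of 1 library are not replicates, so these are descriptions.

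**Figure D5:**
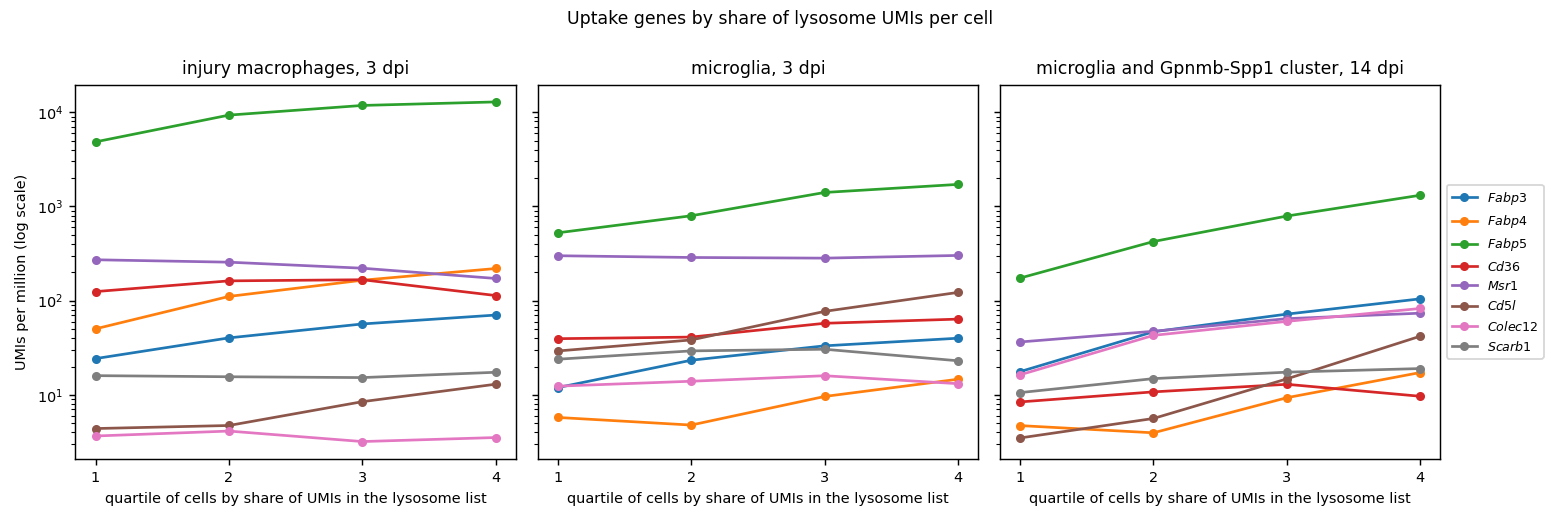
Level of each gene across quartiles of cells ranked by their share of UMIs from the lysosome list, Gpnmb among them, in CPM (log axis). Shown are 8 genes in injury macrophages and microglia at 3 dpi and in microglia with the Gpnmb-Spp1 cluster at 14 dpi. Fabp3, Fabp4 and Fabp5 climb to the highest quartile in injury macrophages, where Msr1 goes from 272 down to 172 CPM.

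The genes around the uptake step were read against the same backgrounds, for microglia with 12.3% of all genes higher and 34.1% lower in microglia at 3 dpi, and 4.71% and 19.6% at 14 dpi. Of 14 lipid storage and export genes, 7 were at least 2-fold higher in microglia at 3 dpi than in the ActD sham and 1 was lower, with median log2 ratios of 0.92 for the list and −0.57 for all genes. At 14 dpi 7 were higher and none lower. Among them, Apoe, the main lipid carrier of glia, went from 1024 CPM in the ActD sham to 13276 CPM at 3 dpi and 72970 CPM at 14 dpi, and Lpl, which frees fatty acids from lipoproteins, from 38.3 to 304 and 877 CPM. Plin2, a coat protein of lipid droplets, was at 27.4 CPM in sham and 548 CPM in 3 dpi microglia, and at 1548 CPM in injury macrophages. Injury macrophages had 8 of the 14 genes higher and 1 lower than the ActD sham border macrophages, where 7.48% and 40.2% of all genes were. Against microglia of their library, 6 were higher and 1 lower, where 6.46% and 16.3% of all genes were. Of 12 genes for the uptake of apoptotic cells tested in microglia, 1 was higher and 6 lower at 3 dpi, and 2 higher and 4 lower at 14 dpi. Mertk, a receptor for phosphatidylserine bridges on dying cells, was at 422 CPM in the ActD sham, 94.1 CPM at 3 dpi and 201 CPM at 14 dpi. In injury macrophages Mertk was at 78.4 CPM, and Cd300lf, a phosphatidylserine receptor of myeloid cells, at 195 CPM against 75.9 CPM in microglia at 3 dpi.

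Of 12 lysosome genes, 4 were higher and 3 lower in microglia at 3 dpi and 4 higher and none lower at 14 dpi, and 5 were higher and none lower in injury macrophages than in ActD sham border macrophages (7.48% and 40.2% of all genes). Ctsd, a lysosomal protease, was at 13391 CPM in injury macrophages, 11859 CPM in 3 dpi microglia and 1249 CPM in the ActD sham border macrophages. Of 11 other scavenger receptors tested, 3 were higher and 2 lower in microglia at 3 dpi, and 1 higher and 3 lower at 14 dpi. The median log2 ratio of the list at 3 dpi was −0.65, near the −0.57 of all genes. Among its genes with most UMIs, Stab1 went from 108 to 351 CPM. Cd68, an endosomal marker of phagocytes, was at 507 and 989 CPM, Lrp1 at 338 and 416 CPM and Scarb2 at 200.2 and 125 CPM, all under 2-fold. Of the 10 genes for other proteins that bind fatty acids or retinoids, 2 had enough UMIs in microglia at 3 dpi, where both were higher, and 1 at 14 dpi, which was lower. Fabp7, the brain-type FABP, was at 8.87 CPM in injury macrophages and 1.40 CPM in microglia at 3 dpi. Of the lipid-sensing regulators, Nr1h3, the liver X receptor alpha, was at 26.4 CPM in injury macrophages, 4.48 CPM in 3 dpi microglia and 9.46 CPM in the ActD sham border macrophages, while 1 of 6 of these genes was higher in microglia at 3 dpi and none at 14 dpi.

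Over 25 profiles of a class in a library, each of at least 50 cells, the genes whose log2(CPM + 1) followed Fabp5 most closely were Gpnmb (Pearson r = 0.916), Spp1 (0.908) and Htr2b (0.886). Fabp4 was followed by Prss46 (0.869), Plin2 (0.860) and Arg1 (0.855), and Fabp3 by Ahnak2 (0.852), Rai14 and Spp1. Cd36 was closest to Ms4a7 (0.897), Dab2 and Folr2, and Colec12 to Adam33 (0.897), Cp and Folr2. Dab2 and Folr2 are genes of border macrophages, while Ms4a7 served as a marker of both border and injury macrophages. Msr1 was closest to Saa3 (0.891), Ms4a7 and Ccl2, Cd5l to Mgarp (0.863), Saa3 and Htr2b, and Marco to Prokr1 (0.860), Npy and Bdh2, from 97 UMIs in all. Olr1 was closest to Aldoa (0.865), Pkm and Tnfaip2, and Scarb1 to Tifab (0.850), Kdelc1 and Bnip2. Profiles of 1 library share its depth and free RNA, so these are descriptions across classes.

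Joint detection in single cells was read from the thinned counts. At 1000 UMIs per cell, 222 of 2585 injury macrophages held Fabp4, and all 222 also held Fabp5, against 92.3% of those without Fabp4. Cells with Cd36 held Msr1 in 22.3% and cells without it in 20.6%. Cells with Msr1 held Fabp5 in 91.6% and cells without in 93.3%. Among microglia and the Gpnmb-Spp1 cluster at 14 dpi, Fabp5 was found in 57.3% of 232 cells with Fabp3 and 28.2% of cells without it, and in 41.9% of 191 cells with Msr1 and 29.2% without it. The cluster alone held Fabp5 in 60.6%, Fabp3 in 9.32% and Msr1 in 7.67% of its cells. The named microglia held them in 19.0%, 3.79% and 3.12%. The part of cluster membership in these joint shares was not tested.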

How the data were processed

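CD45+ cells of mouse spinal cord were profiled in 4 droplet libraries, 1 per group. The deposited values are raw UMI counts per gene and cell, which the authors made with Cell Ranger, and the submitters' processing notes name the mm10 build. By the matrix headers, version 3.0.1 made the 3 dpi and standard sham matrices, and version 3.1.0 those of 14 dpi and the ActD sham. No deposited column was left unused. The 10 genes, the lists and the comparisons were chosen with earlier results of these data known.

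Cells were kept if they held 600 genes or more and no more than 10% mitochondrial UMIs, and cells with Itgam and a lymphoid marker were removed, as in the study's methods. Doublets were taken as the highest Scrublet scores at a rate of 0.8% per 1000 cells (291 cells of the standard sham, 42 of the ActD sham, 774 at 3 dpi and 931 at 14 dpi). The study's own doublet caller was not used, and its integration of the libraries was run only as an alternative. Each library was clustered alone (scanpy 1.11.5, leidenalg 0.10.2; 2000 variable genes without 86 genes held out, 30 principal components, 20 neighbours, resolution 1). A cluster of at least 20 cells was named from marker lists where at least 3 markers were in at least 25% of its cells, its score was at least 0.3 and its leading 10 genes did not belong to another class. These thresholds were set after the clusters were seen, so shares and levels may differ from the study's through the rebuilt names.

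UMIs were summed over the cells of a class and scaled to CPM (counts per 1000000), with exact 95% Poisson intervals, and ratios have exact conditional intervals (scipy 1.17.1). Shares of cells were taken after thinning each cell to 1000 UMIs, without cells below that number, with exact Clopper-Pearson intervals. Intervals and the limit of 3 counts for a count of 0 cover counting error only. Genes with at least 20 UMIs in a pair were counted as 2-fold higher or lower, with no p-value, since no group had a replicate. Named genes were the 10 genes, the 3 genes that followed each most closely, and examples from the 4 genes of each list with most UMIs in a pair. Clusters were described where a level stood out, and so were chosen after their values were seen. The scripts were tested on simulated data. Alternatives changed the cell filters, doublets, clustering, naming, integration (Seurat 5.3.0), variable genes, thinning, count minimum and scaling (TMM factors from edgeR 4.0.16, without its tests).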

Additional observations from a re-analysis of the deposited data

Results flagged for a closer look

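Cd36 and Colec12 differed in opposite directions in microglia and border macrophages when the 14 dpi library was set against the ActD sham library. The log2 ratio of Cd36 was 3.43 in microglia and −1.78 in border macrophages. The log2 ratio of Colec12 was 6.95 in microglia and −1.08 in border macrophages. The border macrophages of the standard sham held Colec12 at 43.4 CPM (30.8 to 59.3), near the 47.6 CPM (36.8 to 60.6) at 14 dpi. The lower Colec12 level in border macrophages was thus seen against the ActD sham only. With 1 library on each side, the difference between the cell classes was not tested. The border macrophage class at 14 dpi also carried microglial markers, at a summed 5699 CPM against 4162 CPM in the ActD sham, and their part in these values was not tested.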

How the results depend on the processing

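No paired analysis was possible because each group was 1 library, and for the same reason no replicate could be left out. Of 97 counts of genes at least 2-fold apart under 14 alternatives, 95 stayed within 1.5 times the reported count. The exception was the standard sham over the ActD sham in microglia, where 4 genes became 1 with at least 200 UMIs in the pair and 2 with names given without the rule on leading genes, an alternative chosen after seeing the data. Of 867 ratios of single genes, 596 stayed within their counting interval, 260 moved by more and 11 turned in direction. All 11 were at least 2-fold as reported. Some ratios below 2-fold changed sign too and are not among the 11. The log2 ratio of Cd36 in injury macrophages over ActD sham border macrophages lay between −1.06 and 0.45. That of Olr1 in monocytes over microglia at 14 dpi lay between −1.29 and 0.54. For macrophages at 14 dpi (border macrophages, and injury macrophages where named) over injury macrophages at 3 dpi, Cd5l turned from −1.44 on the log2 scale to 4.07 with the looser cell filter, 3.78 with the stricter filter, 4.08 at resolution 0.6, 4.04 at resolution 2.0, 2.46 with each cell named on its own and 3.48 with Seurat anchors. Fabp4 turned from −4.80 to 0.16, 0.20 and 0.0748 with the looser filter and at resolutions 0.6 and 2.0. The 14 dpi side held 248 to 529 cells under these settings, against 155. With the stricter filter, at resolution 2.0, with each cell named on its own and with Seurat anchors, 145, 92, 398 and 222 of them were named injury macrophages, against none as reported. For monocytes over microglia at 14 dpi, Fabp4 turned from 3.89 to −0.49 with names given without the rule on leading genes, and Msr1 from 1.38 to −0.0788 without doublet removal. TMM scaling shifted all log2 ratios of a comparison by −0.62 to 0.99. Clustering the merged libraries without integration gave no value for macrophages at 14 dpi over injury macrophages. With 1 library per group, biological spread is unknown, and Marco was too sparse to rank.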

Other observations

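Fabp5 was also high in a kind of dendritic cell. A dendritic cell-like cluster of 74 cells at 3 dpi held 6471 CPM (6238 to 6712), and 94.6% of its cells (86.7 to 98.5) had a Fabp5 UMI at 1000 UMIs per cell. A cluster of 37 dendritic cells at 14 dpi, led by Ccr7 and Fscn1, genes of migratory dendritic cells, held 2947 CPM (2749 to 3155). Both clusters were picked out after their values were seen.

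Small clusters of the sham libraries held the injury-associated carriers too. In the standard sham, 62 microglia led by Spp1, Lpl and Apoe held Fabp3 at 44.1 CPM (31.1 to 60.8) and Fabp5 at 196 CPM (167 to 228), against 3.20 and 31.4 CPM in all microglia of that library. In the ActD sham, an unnamed cluster of 61 cells led by Ccl4, Ccl3, Prss34 and Mcpt8 held Fabp3 at 21.2 CPM and Fabp5 at 83.0 CPM.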
